A study of Mus musculus with 18 samples.

Results

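Translational efficiency (TE), the number of ribosomes on a gene's coding sequence (CDS) relative to its mRNA, was compared between the mesoderm and the neural tube (NT) of mouse embryos at E11.5. The comparison covers the genes whose identifier stands in both deposited tables, 11054 of the 12241 genes found in either table (12064 in the mesoderm table and 11231 in the table of NT and forelimb bud, FL). For each replicate, log2 TE was log2 of the Ribo-Seq value plus 1 minus log2 of the RNA-Seq value plus 1, set to 0 at the median shared gene. A negative log2 TE means fewer ribosomes per mRNA than on the median gene of the same pair of libraries, and 0 need not be the same absolute rate in both tissues. Because the tables were normalized separately, TE was compared and the levels of mRNA or of ribosomes were not.

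In Ribo-Seq, mRNA outside ribosomes is digested and the ribosome-protected fragments (RPFs) are sequenced, while RNA-Seq measures polyadenylated mRNA. TE differs between genes because mRNAs differ in how often ribosomes start on them and how long ribosomes stay on the CDS. At this stage the mesoderm forms somites, limb mesenchyme, heart and kidney primordia, while the NT holds dividing neural progenitors and the first neurons, and the same signalling pathways, such as Shh, Wnt and Hippo, act in both.

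The mesoderm came from R26-mTmGflox/+; Tg(T-cre)1LWD/J/+ embryos, in which Cre under control of T switches cells of the primitive streak lineage to membrane GFP. GFP+ cells were sorted after trypsin dissociation, including cells that still carried the Tomato reporter, so the sort holds every tissue made by that lineage. NT was cut from FVB embryos between the hind limb and the rhombomeres, and was dissociated with papain or, in some experiments, frozen. Both tissues were kept in cycloheximide, which holds ribosomes in place. Each tissue had 3 pairs of 1 Ribo-Seq and 1 RNA-Seq library, so 12 libraries entered the comparison. Tissue, genotype, means of isolation and table of normalization changed together and cannot be told apart.

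On the shared genes, the RNA-Seq libraries held 25202541 to 49769500 reads and the Ribo-Seq libraries 10906000 to 31928051 reads. The mesoderm pairs resembled each other more closely than the NT pairs, with r of log2 TE across genes of 0.852 to 0.925 against 0.502 to 0.757. NT pair 1 stood apart, with r of 0.532 to 0.655 to the mesoderm pairs. The median SD over the 3 pairs of a gene was 0.30 in mesoderm and 0.41 in NT, and 65.2% of genes varied more in NT. Of 13 neural markers, 8 could be found, and their summed RNA-Seq value was 79899 to 131317 normalized reads in NT against 15478 to 17474 in FL of the same table. In the mesoderm libraries these markers were not near 0 (19713 to 22479 normalized reads, on the scale of the other table). Of 10 muscle and mesoderm markers, 6 could be found in mesoderm, and they summed to 1600 to 1944 normalized reads. The highest was *Myh3* (900.8 to 1233.5) and the lowest *Myl7* (26.3 to 38.2), with *Myf5* at 140.0 to 215.0. For NT, *Myh3*, *Myf5* and *Myl7* could not be found. The markers T, *Myod1*, *Sox2* and *Wnt7a* were not analysed here. Markers of other cell types were present in both tissues. In mesoderm, 7 macrophage markers summed to 1464 to 1984 normalized reads, 3 erythroid markers to 5051 to 17962 and 6 endothelial markers to 1634 to 4035. In NT, 4 macrophage markers summed to 726 to 1055, 4 erythroid markers to 13764 to 24326, 6 endothelial markers to 4997 to 5258 and 3 muscle markers to 64 to 482. The part of these cells in the TE of either tissue was not tested. In bulk samples of this kind, fewer cells of a type and less RNA or translation per cell cannot be told apart.

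TE was largely shared by the tissues. The mean log2 TE of mesoderm and NT had r = 0.865 across the 11054 genes, which are not independent replicates, and 93.0% of genes differed by less than 2-fold. The difference was positive in 49.1% of genes and negative in 50.9%. The middle 90% of differences, mesoderm minus NT, ran from -1.02 to 0.71. At least 2-fold higher TE in mesoderm was measured for 183 genes (1.66%) and at least 2-fold lower TE for 588 genes (5.32%). The spread of TE over genes, from the 5th to the 95th percentile, was 3.51 ± 0.48 log2 units in mesoderm and 2.95 ± 0.55 in NT (SD, n = 3). This difference of 0.55 was within the spread between pairs (exact two-sided permutation test, p = 0.30, where 3 against 3 cannot go below 0.1).

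Single genes did not pass the main test. In limma, with Benjamini-Hochberg adjustment over all 11054 genes, 0 genes were higher and 0 lower in mesoderm (0.0% in each direction) when both an adjusted p below 0.05 and a 2-fold difference were asked for, and the lowest adjusted p was 0.160. At an unadjusted p under 0.05, 525 genes were higher (4.75%) and 760 lower (6.88%). The edgeR quasi-likelihood test on whole reads called 0 higher and 7 lower, and DESeq2 called 9 higher and 95 lower. Without NT replicate 3, limma called 17 higher and 54 lower. At the thresholds that the study used for NT against FL, an adjusted p below 0.2 with a 2-fold difference, 7 genes were higher (0.0633%) and 12 lower (0.109%) in mesoderm. In all 19 the 3 mesoderm pairs lay on one side of the 3 NT pairs, as they did for 8.95% of all genes on the higher side and 9.41% on the lower side. These 19 genes were singled out after their values were seen, and their adjusted p in limma runs from 0.160 to 0.191.

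**Figure D1:**
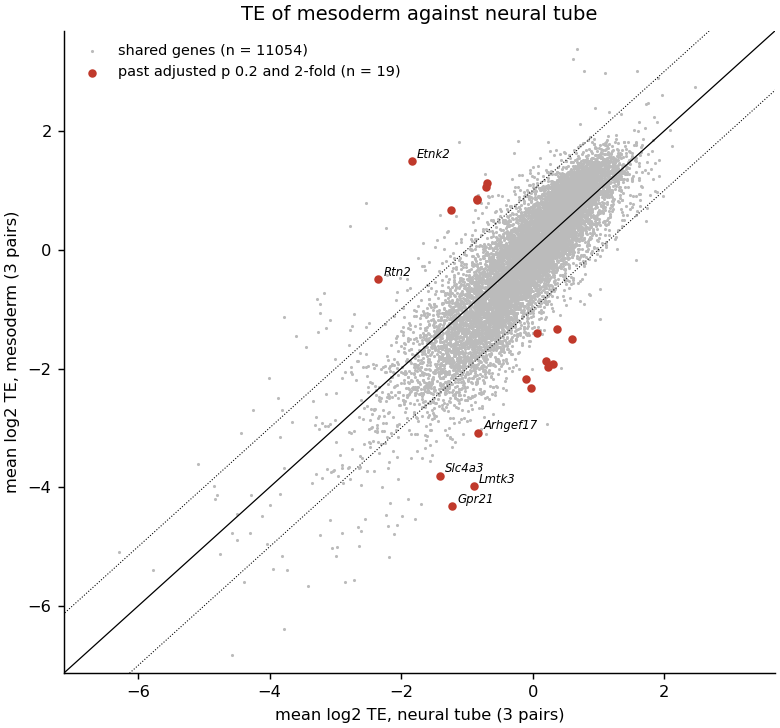
Mean log2 TE of 3 mesoderm pairs (vertical axis) against that of 3 NT pairs (horizontal axis) for 11054 shared genes, each centred on the median gene of its pair. The solid line marks equal TE and the dotted lines 2-fold differences, and red points are the 19 genes past an adjusted p of 0.2 and 2-fold, 12 below the line and 7 above.

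The start codons of 6 of these genes are shown as examples of both directions that rest on 17 or more RPF reads in every library, among them the sister genes *Eno2* and *Eno3*. Each line gives 12 bases before and 3 after the start codon of the transcript with the longest CDS, with the start codon in capitals (RNA shown as DNA, 5′ to 3′, GENCODE annotation of GRCm38, the mm10 build). The first 3 are lower and the last 3 higher in mesoderm.
Lmtk3: tattcctggaccATGgag
Nes: cagaccagcgacATGgag
Eno2: atcccagccatcATGtct
Eno3: tgtggtgcagccATGgcc
Rtn2: ccgaggggggccATGggg
Etnk2: gggctgctgggaATGgct
The start codons lie at chr7:45783940-45783942 (plus strand) for *Lmtk3*, chr3:87971203-87971205 (plus) for *Nes*, chr6:124768320-124768322 (minus) for *Eno2*, chr11:70657874-70657876 (plus) for *Eno3*, chr7:19282832-19282834 (plus) for *Rtn2* and chr1:133363764-133363766 (plus) for *Etnk2*. A purine at the third base before the start codon together with G directly after it, the context that favours initiation, was found in 4 of the 11 lower genes past the thresholds with an annotated context and in 4 of the 6 higher ones. It was found in 41.0% of 20017 coding genes of the annotation and in 43.9% of 3048 genes with a symbol here.

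The 12 genes of lower TE in mesoderm include several known from neurons. *Lmtk3*, a kinase of neurons whose gene overlaps Sult2b1 on the opposite strand, had log2 TE of -4.28, -4.38 and -3.30 in mesoderm and of -0.92, -0.77 and -1.00 in NT. The groups lie far apart, with a difference of -3.09 (95% CI -4.09 to -2.08), or 8.49-fold, on 82 or more RPF reads in every library. *Gabbr1*, a subunit of the GABA-B receptor, had -2.85, -1.97 and -2.16 in mesoderm against -0.13, -0.13 and 0.20 in NT, a difference of -2.31 (95% CI -3.07 to -1.54). *Slc12a5*, the chloride exporter of neurons, had -2.24, -2.13 and -1.54 against 0.55, 0.11 and 0.06. For *Gabbr1* and *Slc12a5*, TE in NT was near that of the median gene, whereas *Lmtk3* lay below the median gene in both tissues.

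*Nes*, the intermediate filament of neural progenitors, was read deeply, with 904 or more RPF reads in each library. Its log2 TE was -1.96, -2.15 and -1.49 in mesoderm and 0.56, 0.12 and -0.08 in NT, a difference of -2.07 (95% CI -2.78 to -1.35). The transcription factor *Nr4a2* had -2.17, -1.33 and -2.29 in mesoderm against 0.34, 0.08 and 0.51 in NT. *Evx2*, a homeodomain factor at the end of the HoxD cluster, had -1.42, -1.26 and -1.82 against 0.12, 0.41 and 1.25. The neural members of this group had RNA-Seq signal in the mesoderm libraries, and how much of it came from neural cells in the sort was not tested.

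The remaining genes of this group, apart from *Eno2*, have varied functions. *Arhgef17*, a guanine nucleotide exchange factor, had log2 TE of -3.13, -3.43 and -2.67 in mesoderm and of -0.99, -0.59 and -0.91 in NT, on 572 or more RPF reads. *Slc4a3*, an anion exchanger, had -3.87, -4.13 and -3.41 against -1.65, -1.08 and -1.50. The differences were -2.25 (95% CI -3.10 to -1.40) and -2.39 (95% CI -3.38 to -1.41). *Ss18l1*, a subunit of the neuronal BAF chromatin complex, varied little within either tissue, with -1.50, -1.41 and -1.30 against 0.12, 0.18 and -0.12. *Gpr21* and *Gdpd3* rest on few reads. *Gpr21*, which overlaps *Rabgap1* on the same strand, had 1, 0 and 2 RPF reads in mesoderm and 153, 57 and 42 in NT, a TE ratio of 0.0738 with a counting interval of 0.0151 to 0.218. *Gdpd3* had 17 RPF reads in mesoderm and 395 in NT, a ratio of 0.236 (0.136 to 0.382), where the intervals cover counting error only.

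The enolases gave a contrast within one family of glycolytic enzymes. *Eno2*, the form of neurons, had log2 TE of -1.26, -0.92 and -1.83 in mesoderm and of 0.12, 0.43 and 0.58 in NT, a difference of -1.71 (95% CI -2.42 to -1.00). *Eno3*, the form of muscle, had 0.84, 1.11 and 0.58 in mesoderm and -1.12, -0.78 and -0.63 in NT, a difference of 1.69 (95% CI 1.08 to 2.30). For neither gene did the pairs of the tissues overlap. Their CDS have the same length of 1305 nucleotides. The RPF reads behind *Eno2* in mesoderm were 19, 19 and 17, against 189 or more in every library for *Eno3*.

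The other genes of higher TE in mesoderm were of mixed function. *Etnk2*, an ethanolamine kinase, had log2 TE of 1.16, 2.20 and 1.10 in mesoderm and of -3.31, -1.56 and -0.65 in NT, with a difference of 3.33 (95% CI 1.98 to 4.67) and a wide spread in NT. *Rtn2*, a reticulon of the endoplasmic reticulum, varied little within either tissue, with -0.55, -0.58 and -0.36 against -2.38, -2.25 and -2.44, a difference of 1.86 (95% CI 1.17 to 2.55). *Sft2d1*, a Golgi transport protein, had 0.05, 1.16 and 0.78 against -1.23, -1.20 and -1.28. *Fkbp7*, a prolyl isomerase of the endoplasmic reticulum, and *Rarres1* differed by 1.82 and 1.76, with 25 and 31 RPF reads in their shallowest libraries. The gene uc008luc.1, for which no symbol was given, differed by 1.68.

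The 3 FL pairs, which share their table with NT, are shown beside these values without a test. For *Lmtk3* they were -4.39, -4.44 and -2.55, for *Nes* -2.10, -2.16 and -0.87, for *Eno2* -1.62, -3.00 and -0.82 and for *Eno3* 1.46, 0.88 and 0.54. These lie among the mesoderm values or near them. For *Gdpd3* they were -0.01, -0.54 and -0.53, close to NT, and for *Rtn2* 1.14, 1.36 and 0.34, above both tissues.

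**Figure D2:**
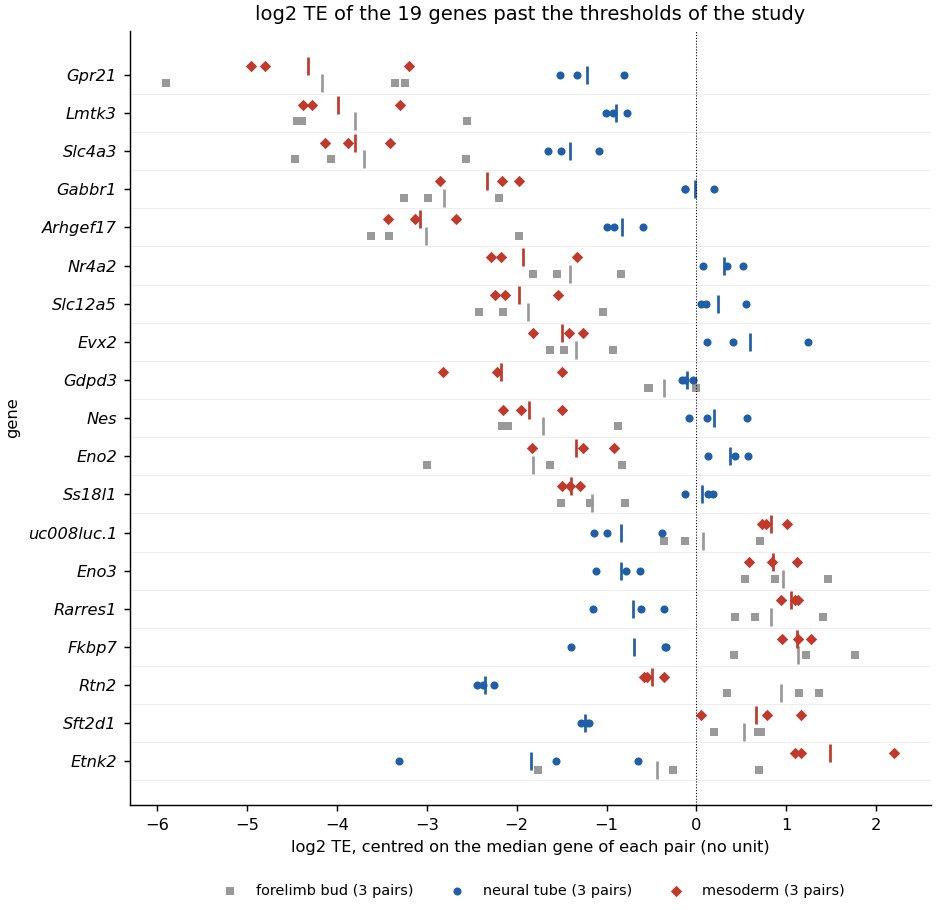
Log2 TE (horizontal axis, centred on the median gene of each pair) of the 19 genes past an adjusted p of 0.2 and 2-fold, 1 gene per row. Each diamond (mesoderm), circle (NT) and square (FL) is 1 of 3 pairs and the vertical ticks are means, and the ranges of diamonds and circles do not overlap in any of the 19 genes.

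Differences in TE followed the length of the CDS. Of the 3230 shared genes with a symbol (29.2%), 3179 had an annotated coding transcript. In the quartile with the shortest CDS (114 to 813 nucleotides) the median difference was 0.51, and 89.6% of 797 genes had the higher TE in mesoderm. In the quartile with the longest CDS (3405 to 26400 nucleotides) it was -0.87, and 1.9% of 794 genes were higher in mesoderm. Spearman's rank correlation between the difference and CDS length was -0.70 across these genes, which share the same libraries, and is given as a description.

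The relation was not the same in all NT pairs. Within pairs, the rank correlation between log2 TE and CDS length was -0.51, -0.64 and -0.55 in mesoderm and 0.00, -0.32 and -0.53 in NT. Against NT pair 1 alone the difference had a rank correlation of -0.73 with CDS length, against NT pair 2 -0.69 and against NT pair 3 -0.22. The quartile with the longest CDS had a median log2 TE of -1.45, -2.13 and -1.55 in mesoderm and of -0.29, -0.60 and -1.50 in NT, and NT pair 3 lay among the mesoderm pairs. In FL the rank correlations were -0.74, -0.74 and -0.48, and the medians of the quartile with the longest CDS were -2.69, -2.57 and -0.98.

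Symbols came from supplementary tables of the study that were given only in part and were ordered by its own TE tests, so genes with a symbol are a selected set. Their median difference was -0.42 against 0.05 for the genes without a symbol. Of the genes with a symbol 35.6% were higher and 64.4% lower in mesoderm, 3.72% and 17.1% by at least 2-fold. Their tissues did not overlap in 9.54% on the higher and 21.6% on the lower side, and 8.11% and 19.2% had an unadjusted p under 0.05. Members of the study's list of signalling components were not chosen singly by TE. The study did pick their network as an example of translational regulation in mesoderm, so the list is not free of selection. Its 151 measured genes had a median difference of -0.21, with 108 lower and 43 higher, and tissues that did not overlap in 17.9% on the lower and 3.97% on the higher side. The rank correlation of the difference with CDS length was -0.49 in these 151 genes. Within pairs, their rank correlation of log2 TE with CDS length was weaker than over all annotated genes with a symbol. It was -0.17, -0.32 and -0.17 in mesoderm and 0.00, 0.06 and -0.12 in NT. Their shortest quartile (450 to 1305 nucleotides, n = 38) had a median of 0.07 and their longest (3300 to 7452 nucleotides, n = 38) of -0.67.

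**Figure D3:**
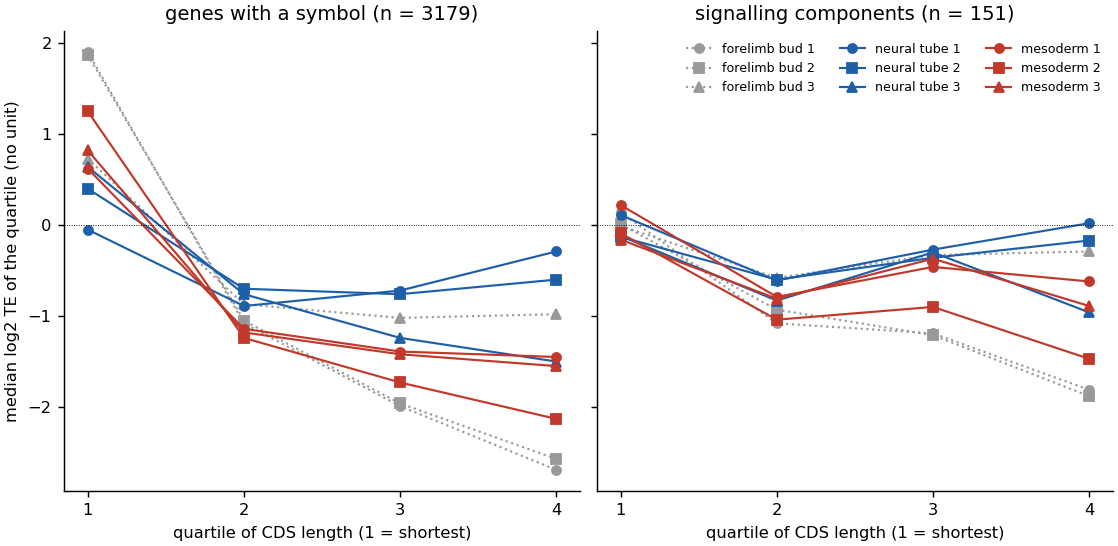
Median log2 TE (vertical axis) of genes in quartiles of CDS length (horizontal axis, shortest first) in each of 9 pairs, for 3179 genes with a symbol (left) and 151 signalling components not chosen singly by TE (right). Solid red lines are mesoderm, solid blue lines NT and dotted grey lines FL, and for the longest CDS on the left NT pair 3 (-1.50) lies with mesoderm pairs 1 and 3 (-1.45 and -1.55) while NT pairs 1 and 2 lie higher.

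Features of the 5′UTR moved in the same direction with smaller steps. Genes with at least 1 ATG in the annotated 5′UTR (n = 1798) had a median difference of -0.52, and genes with none (n = 1381) of -0.13. The quartile with the shortest 5′UTR had a median of -0.19 and the quartile with the longest of -0.53. The parts of CDS length and of these features were not tested separately.

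Gene groups are given with their counts and medians. Over all genes the median was -0.01 and 50.9% were lower in mesoderm. Over genes with a symbol the median was -0.42 and 64.4% were lower. In limma, no group had a member called at an adjusted p under 0.05. The difference moved with CDS length, so the median CDS length of each group is given as well. A second median is that after the trend of log2 TE on CDS length was removed in each pair, which sets annotated genes of a given length to about 0. Groups other than the signalling components were drawn from genes that the study had selected on TE in these samples. The network of signalling components was picked as a whole for TE in mesoderm. The direction of any group is therefore not independent evidence.

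Most measured genes of the translation and energy machinery were higher in mesoderm. Of 80 cytoplasmic ribosomal proteins in the list, 31 could be found by symbol. All 31 had a positive difference, with a median of 0.79. In 15 of them the tissues did not overlap, against 9.54% of genes with a symbol on the higher side. Their medians by pair were 0.12, 1.02 and 0.52 in mesoderm and -0.60, -0.20 and -0.07 in NT. The most extreme were *Rpl37* (2.61) and *Rplp2* (2.23), whose mRNA values were low and whose reads can be shared with pseudogenes. Mitochondrial ribosomal proteins were higher in 35 of 36, with a median of 0.57. *Mrpl33* (0.99) led, and *Mrpl51* (-1.09) was the exception. Subunits of the respiratory chain and ATP synthase were higher in 40 of 42 with a median of 0.45, from *Ndufs1* of complex I (-0.91) to cytochrome c, *Cycs* (0.92). Their CDS are short, with medians of 390, 492 and 390 nucleotides, and without the length trend the medians were 0.24, 0.04 and -0.09.

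Muscle markers had the largest group median, 2.13, but only 3 of 7 were measured. *Myl4*, an atrial and embryonic myosin light chain, had log2 TE of -0.18, 1.16 and 0.23 in mesoderm and of -0.83, -2.97 and -4.52 in NT. Its RPF reads in NT were 20, 1 and 0, and the TE ratio was 4.56 (counting interval 2.91 to 7.51). *Tnni3*, cardiac troponin I, had 33 RPF reads in mesoderm and 10 in NT, a ratio of 4.00 (1.93 to 9.10). The marker genes of macrophages (*C1qb* 1.00, *Fcer1g* 0.87), red cells (*Hba-x* 0.39, *Slc25a37* -0.94) and endothelium (*Esam* 0.49, *Tek* -0.13) overlapped between tissues. The median CDS of the muscle, macrophage, red cell and endothelial lists was 582, 751, 1017 and 3703 nucleotides. Their medians as measured were 2.13, 0.74, 0.12 and -0.05, and without the length trend 1.59, 0.44, -0.16 and 0.70.

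Nuclear proteins lay on the other side. Of 55 measured identifiers of chromatin regulators, 54 were lower in mesoderm, with a median of -0.95, and 22 did not overlap, against 21.6% of genes with a symbol on the lower side. Their medians by pair were -1.70, -2.05 and -1.56 in mesoderm and -0.25, -0.69 and -1.52 in NT, where NT pair 3 lay close to mesoderm pair 3. *Kmt2d*, a histone H3 lysine methyltransferase, had -2.54, -3.44 and -1.81 against -0.28, 0.12 and -1.18, on 1260 or more RPF reads. *Hdac4*, a histone deacetylase, had 13 RPF reads in mesoderm and 106 in NT, a ratio of 0.190 (0.098 to 0.339). DNA repair and replication genes had a median of -0.76 (13 of 15 lower), with NT pairs at 0.06, -0.51 and -1.67, and were led by *Polq* (-1.71) and *Brca2* (-1.31). Zinc finger proteins had a median of -0.64, with 100 of 120 lower, from *Zbtb20* (-1.63) to *Zfp365* (1.83, on 27 RPF reads in mesoderm and 38 in NT, a ratio of 1.91 with a counting interval of 1.12 to 3.22). The median CDS was 5073 nucleotides for chromatin regulators, 6066 for DNA repair and 1921 for zinc finger proteins, against 1854 for genes with a symbol. Without the length trend the 3 medians were -0.02, 0.08 and -0.13.

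Genes of the neuronal surface were lower in mesoderm in nearly every case. Of 29 ion channels and synaptic proteins, 28 were lower, with a median of -0.92, and 18 did not overlap on the lower side, against 21.6% of genes with a symbol. Their medians by pair were -1.93, -1.52 and -1.57 in mesoderm and -0.83, -1.00 and -0.63 in NT. All 3 NT medians lay above the mesoderm ones, and the median difference without the length trend was -0.26. Axon guidance and cadherin genes were lower in 18 of 18 (median -0.73), led by *Sema4g* (-1.23) and *Celsr1* (-1.19). Neuronal cytoskeleton and identity genes were lower in 11 of 16 (median -0.71), close to the 64.4% of genes with a symbol, and were led by *Nes* and *Apc2* (-1.68). The medians of the axon guidance and the cytoskeleton lists without the trend were -0.01 and 0.02. The median CDS of the 3 lists was 2517, 3495 and 2817 nucleotides.

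The median of the Hox genes was lower in mesoderm with and without the length trend, but these medians are set against different genes. Of 16, 12 were lower in mesoderm and 4 higher, where 64.4% of genes with a symbol were lower. The median was -0.56, against -0.42 for genes with a symbol. On the lower side 5 did not overlap, against 21.6% of genes with a symbol. Their CDS are short, with a median of 940 nucleotides. The median without the length trend was -0.67, measured from annotated genes of the same length rather than from all genes. *Hoxa6* had log2 TE of -2.98, -3.72 and -2.62 in mesoderm and of -1.45, -0.68 and -1.04 in NT, a difference of -2.05 (95% CI -3.02 to -1.08). *Hoxb3* had -2.63, -2.07 and -2.47 against -1.45, -1.23 and -1.13. The annotated *Hoxa6* gene overlaps *Hoxa3* on the same strand, so their reads may be split.

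In the extracellular matrix list, 15 of 16 genes were lower (median -0.79), led by *Col27a1* (-1.96) and the surface integrin *Itgb8* (-1.68). Their median CDS was 3865 nucleotides, and without the length trend the median was 0.10.

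**Figure D4:**
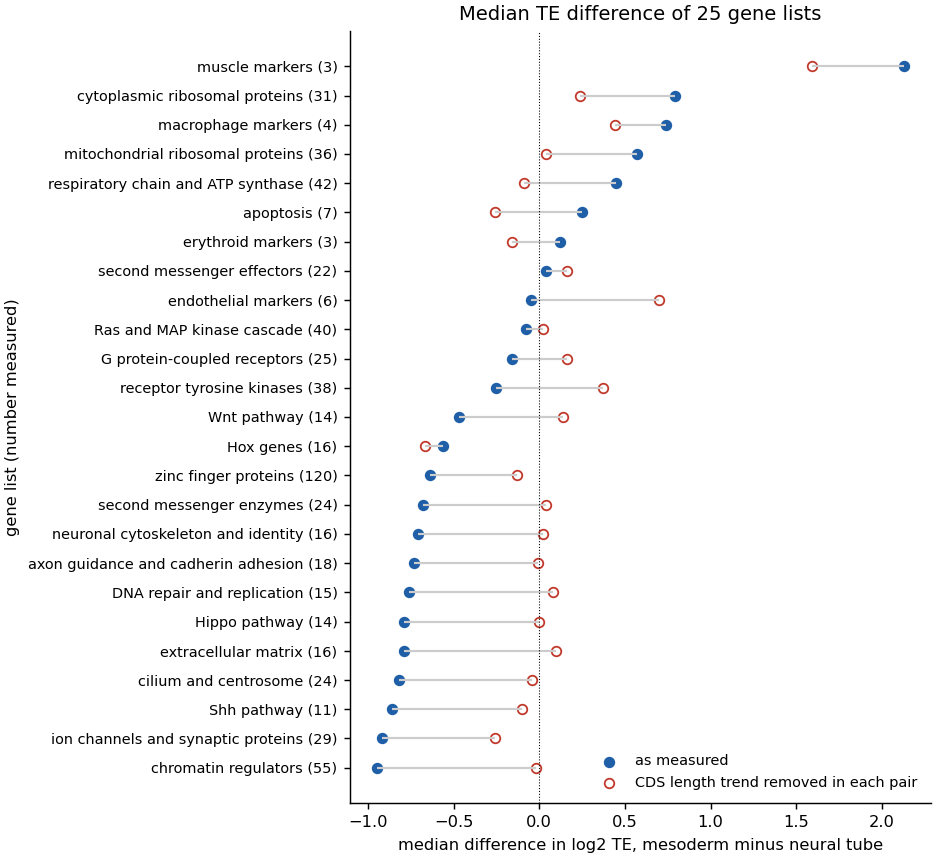
Median difference in log2 TE, mesoderm minus NT (horizontal axis), of 25 gene lists with the number of measured members in brackets. Filled points are the values as measured and open points those after the trend on CDS length was removed in each pair, and 16 lists lie at least 0.5 from 0 as measured and 3 after removal (muscle markers, endothelial markers and Hox genes). As measured, 0 is the median of all genes, and after removal it is the level of annotated genes of the same length.

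The signalling cascade could be followed from receptor to kinase in the study's list, whose members were not chosen singly by TE. Receptor tyrosine kinases had a median of -0.25 over 38 genes (31 lower), and 5 did not overlap, against 17.9% of the whole signalling list on the lower side. *Aatk* (-1.74) and *Fgfr3* (-1.11) led, and *Fgfr3*, a receptor for fibroblast growth factors, had log2 TE of -1.84, -1.88 and -1.78 in mesoderm and of -0.83, -0.69 and -0.66 in NT. G protein-coupled receptors had a median of -0.16 over 25 genes, with *Gpr21* and *Gpr153* (-1.74) at the extreme. The enzymes that make second messengers (PI3 kinases, phospholipases C and adenylyl cyclases) were lower in 23 of 24, with a median of -0.68. Among them *Adcy1*, an adenylyl cyclase of neurons, had -3.51, -3.89 and -2.57 against -1.02, -0.98 and -1.68, and *Plce1* differed by -1.65.

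The proteins further down the cascade had medians close to 0. The list of second messenger effectors had a median difference of 0.04 over 22 genes. It ran from *Prkca* (-0.96), a protein kinase C, to *Pdk1* (0.89), a mitochondrial kinase that is not such an effector. Ras and the MAP kinases had a median of -0.08 over 40 genes. The lowest were the upstream kinases *Map3k10* (-2.09) and *Map3k13* (-1.34), both of the mixed lineage family. *Map3k13* had -0.97, -1.10 and -1.02 in mesoderm against 0.78, 0.43 and -0.28 in NT. The median CDS was 2973, 1506 and 3397 nucleotides for the tyrosine kinases, G protein-coupled receptors and enzymes, and 1278 and 1783 for the effectors and kinases. Without the length trend the 5 medians were 0.37, 0.16, 0.04, 0.16 and 0.02.

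In the Shh pathway, *Ptch1* and *Gli1* had the lower TE in mesoderm in every pair, and *Smo* overlapped. Of 11 measured members 10 were lower, with a median of -0.86. Of these 7 did not overlap, against 21.6% of genes with a symbol on the lower side. *Ptch1*, the receptor that restrains the pathway, had log2 TE of -1.57, -2.52 and -1.80 in mesoderm and of -0.82, -0.96 and -1.30 in NT, a difference of -0.93 (95% CI -1.76 to -0.11, adjusted p = 0.395 in limma). *Gli1*, the activator induced by the pathway, had -2.61, -2.66 and -2.48 against -2.03, -1.29 and -1.44, a difference of -1.00. *Gli3*, its main repressor, overlapped (-0.84), and *Smo*, the transducer, had -1.64, -2.09 and -1.94 against -1.95, -1.50 and -1.25, a difference of -0.32 (95% CI -1.13 to 0.48).

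The cilium, where Shh signalling takes place, gave a less even picture. Of 24 cilium and centrosome genes, 21 were lower with a median of -0.82, and 4 did not overlap, against 21.6% of genes with a symbol. *Evc*, at the base of the cilium, was even, with -2.30, -2.54 and -2.38 in mesoderm and -1.50, -1.42 and -1.05 in NT. *Dync2h1*, the motor of retrograde transport, had -2.43, -2.38 and -2.23 in mesoderm and 0.78, -0.79 and -2.72 in NT, so that 1 NT pair was the lowest of all 6 (difference -1.44, 95% CI -3.06 to 0.18). *Ift172* also overlapped (-0.94), and *Cep350* (-1.87) and *Cep250* (-1.74) had the largest differences of the list. *Tulp3*, which brings receptors into the cilium, was the only Shh gene on the higher side, with 0.17, 0.29 and -0.01 against -0.61, -0.73 and -1.41. The median CDS was 3549 nucleotides for the Shh list and 4156 for the cilium list, and the medians without the length trend were -0.10 and -0.04.

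Of 14 Wnt genes 10 were lower in mesoderm, with a median of -0.47, close to the 64.4% and -0.42 of genes with a symbol. The tissues did not overlap in 4 on the lower and 2 on the higher side, against 21.6% and 9.54%. *Apc*, the scaffold of β-catenin destruction, had log2 TE of -2.43, -2.01 and -2.18 in mesoderm and of 0.98, -0.65 and -1.59 in NT, a difference of -1.78 (95% CI -3.06 to -0.51), and its relative *Apc2* had -1.54, -2.67 and -1.61 against -0.03, 0.40 and -1.14. *Dvl1*, which relays the Wnt signal, overlapped (-0.35). *Rspo1*, a secreted enhancer of Wnt signalling, was higher in mesoderm by 1.85, but its RPF reads in NT were 4, 12 and 0, and the TE ratio was 2.80 (counting interval 1.66 to 5.05). Of 14 Hippo genes 13 were lower (median -0.79), against 64.4% of genes with a symbol, and 8 did not overlap, against 21.6%. The giant cadherins *Fat3* (-1.51) and *Fat4* (-1.31) led. The kinase *Lats2* differed by -0.86 without overlap, whereas *Wwc1* (-0.64), *Nf2* (-0.25), *Wtip* (-0.16) and *Sav1* (0.25) overlapped. The median CDS was 2406 nucleotides for Wnt and 3348 for Hippo, and the medians without the length trend were 0.14 and 0.00.

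*Bax*, *Bad* and *Bid*, whose products act at mitochondria in apoptosis, differed by 0.64, 0.29 and 0.25, and each overlapped between tissues. *Bax* had log2 TE of 0.24, 0.80 and 0.47 in mesoderm and of -0.67, -0.04 and 0.32 in NT (95% CI of the difference -0.07 to 1.34). Among the 7 apoptosis genes measured, *Bcl2l2* (-1.07) and *Apaf1* (-0.77) lay lowest, and both overlapped. The list had a median of 0.25 and a median CDS of 588 nucleotides, and its median without the length trend was -0.26. Of 19 signalling, cilium and apoptosis genes that the text of the study names, 14 were lower and 5 higher in mesoderm. Among genes with a symbol the shares were 64.4% and 35.6%. The study named these 19 for their TE in mesoderm or between NT and FL, so their direction is not independent evidence. An unadjusted p under 0.05 in limma was reached by 6 of them on the lower side and 1 on the higher. Among genes with a symbol 19.2% and 8.11% reached it. The lowest adjusted p of the 19 in limma was 0.299.

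**Figure D5:**
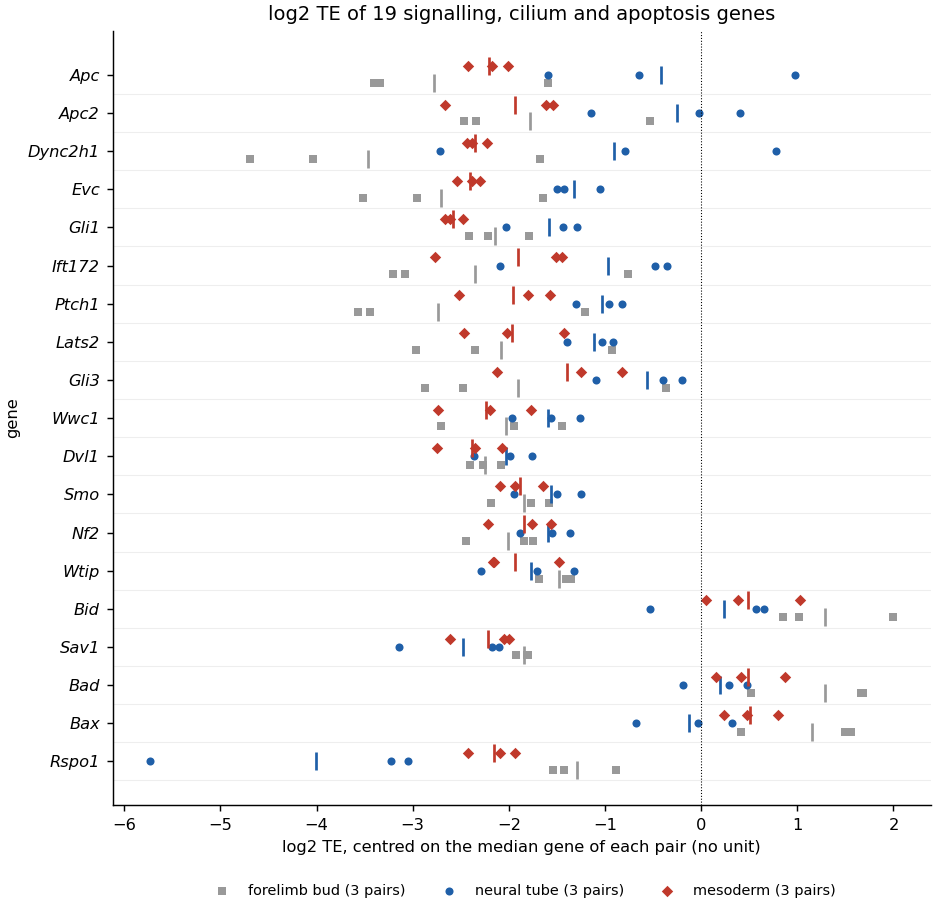
Log2 TE (horizontal axis, centred on the median gene of each pair) of 19 genes of the Shh, Wnt and Hippo pathways, the cilium and apoptosis, 1 gene per row. Each diamond (mesoderm), circle (NT) and square (FL) is 1 of 3 pairs and the vertical ticks are means. The diamonds lie wholly below the circles for *Evc*, *Gli1*, *Ptch1*, *Lats2*, *Apc* and *Apc2* and wholly above for *Rspo1*, and the circles of *Dync2h1*, *Rspo1* and *Apc* span the widest ranges.

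Removal of the CDS length trend left large differences in some genes and little in others. The 18 genes past the study's thresholds that have an annotated CDS, which were picked for large differences, stayed at least 2-fold apart in the same direction without the length trend, with differences of 1.13 to 3.34 in size. Of the 25 lists, 16 had a median at least 0.5 from 0 as measured and 3 without the trend, and 17 then lay within 0.2 of 0. These counts have different zeros. As measured, 0 is the median of all genes, where genes with a symbol lie at -0.42. After removal it is the level of annotated genes of the same length, so the shifts are not a measure of length alone. *Ptch1* moved from -0.93 to -0.10, *Celsr1* from -1.19 to -0.05, *Fat4* from -1.31 to 0.06, *Apc* from -1.78 to -0.67 and *Kmt2d* from -2.15 to -0.73, whereas *Lmtk3* kept -2.25, *Gabbr1* -1.65, *Hoxa6* -2.55, *Rtn2* 2.13 and *Eno3* 1.86. In that fit, limma called 1 gene, *Rtn2*, at an adjusted p under 0.05. Whether the relation of TE with CDS length arose in the tissues or in the preparation of the pairs was not tested.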

How the data were processed

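Ribo-Seq and RNA-Seq of mesoderm and NT, 3 replicates each, were compared, and 2 tables hold the values. The authors removed adapters (cutadapt), aligned reads to canonical UCSC genes of mm10 (Bowtie2), kept unique reads and counted them on the CDS without its ends, with RPFs assigned by the ribosomal A site. The deposited signal is these counts divided by the DESeq library size, separately for each table. In all 12 libraries 100.0% of values were whole multiples of 1 step within 0.01, which gave whole reads for the count tests and the depth.

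Log2 TE per pair (pseudocount 1, no filter) was tested in limma 3.58.1 (R 4.3.3; trend, two-sided, Benjamini-Hochberg over 11054 genes). edgeR 4.0.16 (TMM) and DESeq2 1.42.0 on reads were alternatives, as were pseudocounts of 0.5 and 8, a minimum of 100 normalized RNA-Seq reads and 10 RPF reads, quantile normalization, array weights and leaving out each pair. A paired edgeR fit and the removal of a loess trend on CDS length over 3179 genes were chosen after seeing the data. The main limma fit, limma with a replicate block, both edgeR fits and DESeq2 were tested on simulated data. The other settings, among them array weights and the removal of the length trend, were not. The simulated libraries were drawn independently, with the same dispersion in both tissues and no length trend. They therefore do not show how the fits behave where NT pairs spread more or pairs differ in the length trend. Python 3.11.15 with pandas 2.3.3 and scipy 1.17.1 was used otherwise. Ribo-Seq and RNA-Seq of a number were paired because the study's methods split each sample. Their deviations correlated with r of 0.75, 0.59 and 0.60 in mesoderm and -0.28, 0.35 and 0.05 in NT. The NT correlations do not bear out the pairing by number, on which log2 TE of each NT pair and its spread rest. The study froze NT in some experiments, and whether these include the samples compared is not given in the sources used here.

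Symbols came from supplementary tables, and transcripts from GENCODE vM21, whose isoforms may differ from the authors' choice. Columns of the authors' comparisons were not used. Named genes were the 2 of largest difference in each of 26 lists and the 20 genes the study's text names, besides the 19 past the study's thresholds; 1 of these lists and 1 of these genes are not reported here. The members and lists were chosen with earlier results of these data known. Counting intervals are exact 95% binomial ones. Genes that overlap others, such as *Gli1*, *Evc* and *Lmtk3*, may share reads, since the use of strand in counting is not given in the sources used here. The p-values cover the spread between these 3 replicates, which the study calls biological.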

Additional observations from a re-analysis of the deposited data

How the results depend on the processing

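The count of 0 genes higher and 0 lower in mesoderm held with either pseudocount, the read minimum, quantile normalization and no fold threshold. Other settings gave calls. An adjusted p under 0.2 gave 7 higher and 12 lower, unpaired libraries without a replicate block 0 and 7, edgeR 0 and 7, edgeR with pairs 1 and 12, and DESeq2 9 and 95. Array weights gave 257 and 768, but their estimation did not converge and put most weight on mesoderm pair 3 (14.952) and NT pair 2 (25.609). Removal of the CDS length trend gave 1 and 0. Leaving out 1 replicate gave 0 to 17 higher and 0 to 54 lower. The highest counts came without NT replicate 3, and without NT replicate 1 the count was 1 higher. The cause was not tested.

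With the replicate number as a block over the 6 pairs, limma called 12 higher and 8 lower. The numbers do not pair mesoderm with NT: log2 TE deviations of pairs with the same number had r of 0.15, -0.16 and -0.20, and 0 of 6 pairs correlated best with their own number.

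The difference in spread of log2 TE stayed positive, from 0.55 to 0.61 under the pseudocounts and the read minimum, and from 0.27 to 0.84 with 1 replicate left out. Differences of some named genes changed sign, the largest of them *Fat4* (-1.31), *Gli3* (-0.84) and *Apaf1* (-0.77). Quantile normalization gave *Dvl1* 0.05, *Smo* 0.12, *Nf2* 0.19 and *Wtip* 0.31. Array weights gave *Tek* 0.50, *Bid* -0.49 and *Sav1* -0.41. Without the length trend *Fat4* was 0.06, *Gli3* 0.04, *Apaf1* 0.01, *Wwc1* 0.08, *Dvl1* 0.19, *Smo* 0.26, *Nf2* 0.21, *Tek* 0.60, *Bid* -0.30, *Bad* -0.26 and *Hba-x* -0.16. With 1 replicate left out, *Wtip* ran from -0.42 to 0.07, *Tek* from -0.49 to 0.37, *Bid* from -0.13 to 0.47 and *Sav1* from -0.08 to 0.45. Depth limits genes with few RPF reads, such as *Gpr21*, *Rspo1* and *Myl4*.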
